A study of Mus musculus with 2 samples.

Results

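Stromal cells of the gut feed the epithelium above them with secreted growth factors, and this account concerns 9 such genes: the fibroblast growth factors Fgf2, Fgf7 and Fgf10, the hepatocyte growth factor gene Hgf, and the epidermal growth factor (EGF) family genes Ereg, Areg, Hbegf, Nrg1 and Tgfa. They were taken as a list of ligands, each read by its probeset (the set of array probes that reads 1 gene) with the highest mean over both arrays. Of the 9 genes, 8 had a probeset paired with that gene alone, among 22180 genes so named on the array. Areg, the gene of amphiregulin, had none, so its expression was not analysed here. The genes were listed with earlier results of these data known.

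The cells were subepithelial myofibroblasts, the contractile fibroblasts beneath the intestinal lining, taken from small bowel of BALB/c mice with no mutation (age not given). The stimulated cells had 1 day with a homogenate of intestinal eosinophils (granulocytes resident in the gut wall) at 5 mg/ml, and the non-stimulated cells were cultured without it. RNA of 3 cultures was pooled for each condition and measured on 1 array each (GeneChip Mouse Gene 2.0 ST), so there is no replicate, no test and no error for any difference, and the number of arrays limits the precision. A homogenate of another cell type was not among these 2 samples.

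Growth factors of this kind act across short distances. FGF7 and FGF10 are made by stromal cells and bind a splice form of FGF receptor 2 that epithelial cells carry, with heparan sulfate as a partner. HGF is secreted as an inactive precursor, is cut by proteases and then binds the receptor MET, through which it moves and multiplies epithelial cells. Ligands of the EGF family are made as membrane proteins, are cut free by metalloproteases and bind the ErbB receptors, which drive renewal and repair of the gut lining.

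Values are log2 probeset values, and a difference is the stimulated value less the non-stimulated one. To be called above background, a gene had to exceed, on at least 1 array, the level below which 95% of the probesets for olfactory and vomeronasal receptors lay, 5.57 on the stimulated and 5.58 on the non-stimulated array. In all, 14068 genes did. All 11 fibroblast markers were above background, led by Vim and Acta2. A label field names eosinophils as the source of both samples, but neither Epx nor Prg2, genes of eosinophil granule proteins, exceeded background, and of 9 eosinophil markers measured 1 was above it on the stimulated array and 2 on the non-stimulated array, among them Alox15 and Cebpe. No mast cell marker was (Kit and Tpsab1 were the highest). Of macrophage and pan-leukocyte markers, 4 of 12 were on the stimulated and 3 on the non-stimulated array, with Cd53 and Fcgr1 highest.

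Fgf7, Ereg and Hgf were higher with homogenate, while Fgf2, Fgf10, Hbegf and Nrg1 stayed within 0.15 of 0 and Tgfa was under background on both arrays. The 7 genes above background were so on both arrays. Among them 1 was at least 2-fold higher, where 0.192% of all genes above background were, and 3 were at least 1.5-fold higher, where 0.796% were. None was at least 2-fold or 1.5-fold lower, against 0.0426% and 0.64% of all genes. Their median difference was 0.10, beside 0.00 over all 14068 genes, and it came to 0.23 with the mean of a gene's probesets and to 0.35 with the probeset of largest difference. Of the 7, 6 were higher and 1 lower, while 50.2% of all genes were higher. Markers of the cells themselves differed beside these genes. Smooth muscle markers were lower with homogenate in 5 of 5 cases, 2 of them by at least 1.5-fold, Cnn1 at -0.67 and Des at -0.62, and Actg2 differed by -0.35. Of the 11 fibroblast markers 5 were higher and 6 lower, from Pdgfra at 0.56 to Tagln at -0.41, with Acta2 at -0.28. The part of these shifts in the values of the growth factors and their pathways was not tested.

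**Figure D1:**
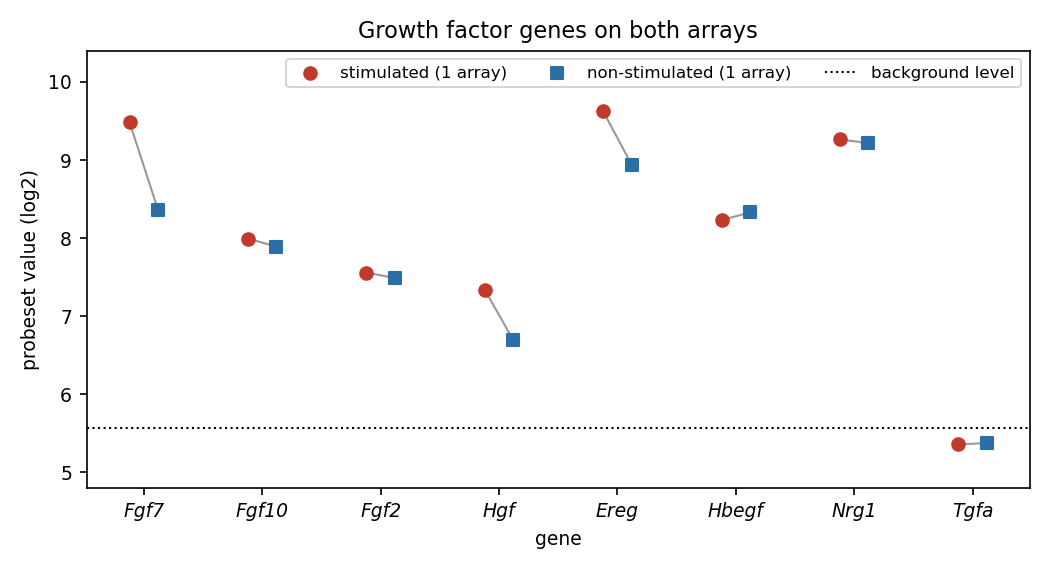
Probeset values (log2, vertical axis) of the 8 measured growth factor genes, with a red circle for the stimulated array and a blue square for the non-stimulated array; the dotted line is the background level of the stimulated array, 5.57. Fgf7, Hgf and Ereg have the circle clearly above the square, by 1.12, 0.64 and 0.68, and Tgfa lies under the line on both arrays.

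Fgf7, which encodes keratinocyte growth factor, a mitogen that fibroblasts make and epithelial cells receive, had the largest difference of the 7. It read 9.48 on the stimulated array and 8.37 on the non-stimulated array. That is a difference of 1.12, or 2.17-fold higher with homogenate. Both values were well clear of background. Of all 14068 genes Fgf7 was number 23 from the top. In the brightest of 4 equal sets by mean level, it was among 6 of 3517 genes that were higher by as much. In pooled RNA, more cells that make a transcript and more transcript per cell cannot be told apart.

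Fgf10, the closest relative of Fgf7 by receptor use and a stromal factor needed for gut and lung budding, did not share this difference on its brighter probeset. That probeset read 7.99 on the stimulated and 7.89 on the non-stimulated array, 1.08-fold higher. A second probeset of Fgf10 read 7.71 on the stimulated and 7.37 on the non-stimulated array, a difference of 0.35. Both were higher with homogenate and neither reached 1.5-fold. Fgf2, basic fibroblast growth factor, a mitogen for fibroblasts and endothelium, read 7.56 on the stimulated array and 7.49 on the non-stimulated array. This was 1.05-fold higher, and 1054 of the 3517 genes of like level (the third of the 4 sets) were higher by at least as much. In the RefSeq gene table Fgf2 overlaps Nudt6, which read 7.14 with homogenate and 7.23 without, and Fgf7 overlaps Fam227b, not analysed here. Whether these probesets also catch transcripts of the overlapping gene was not tested.

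The 250 bases before the annotated starts of Fgf7 and Fgf10 are shown because these ligands use the same epithelial receptor form and differed in how far they moved. The letters come from RefSeq (GRCm38.p6), from chr2:126034408-126034657 and chr13:118714449-118714698, both on the plus strand, and capitals mark matches to the motifs named next.
Fgf7: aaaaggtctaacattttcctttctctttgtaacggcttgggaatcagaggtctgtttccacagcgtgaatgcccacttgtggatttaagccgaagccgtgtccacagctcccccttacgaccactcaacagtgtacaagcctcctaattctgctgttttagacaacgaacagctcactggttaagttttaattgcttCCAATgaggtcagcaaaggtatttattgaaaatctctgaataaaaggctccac
Fgf10: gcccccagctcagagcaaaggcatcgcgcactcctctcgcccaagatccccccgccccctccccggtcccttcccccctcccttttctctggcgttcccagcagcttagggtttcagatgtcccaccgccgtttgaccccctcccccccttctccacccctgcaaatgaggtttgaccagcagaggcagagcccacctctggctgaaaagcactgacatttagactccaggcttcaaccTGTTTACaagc

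The following 7 motifs were searched on both strands, chosen with these sequences in view. They were AP-1 (TGANTCA), C/EBP (TTGCNNAA), the cyclic AMP response element (TGACGTCA), NF-kB, the TATA box (TATAAA), the CCAAT box (CCAAT) and a forkhead core (TGTTTAC). The Fgf7 window held 1 match, a CCAAT box that begins 53 bases before the start, a motif in 33.8% of the 32851 windows of all genes. The Fgf10 window held 1 match, a forkhead core that begins 11 bases before the start, a motif in 3.17% of windows. The windows also differed in composition, with 43.6% G and C in Fgf7 and 61.2% in Fgf10, where the median of all windows was 52.4%. One of the 2 windows of Hgf held the forkhead core as well, on the minus strand. The AP-1 motif was in 6.75% of all windows, C/EBP in 9.56%, NF-kB in 3.9%, the TATA box in 12.4% and the cyclic AMP element in 1.55%. None of these letters were in the windows of Fgf7, Fgf10, Fgf2, Hgf or Tgfa. The window of Areg, a gene without a value here, held a cyclic AMP element and a TATA box. Windows were available for 6 listed genes, and not for Ereg, Hbegf and Nrg1. Whether any motif or the composition has a part in the differences was not tested.

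Hgf, a factor of mesenchymal cells that acts on epithelium, was higher with homogenate from a dimmer level. It read 7.34 on the stimulated array and 6.69 on the non-stimulated array. The difference was 0.64, or 1.56-fold higher, and it lay 1.77 above the background level on the stimulated array and 1.11 on the non-stimulated array. Hgf was number 81 of 14068 from the top, and 16 of the 3517 genes in the second dimmest of the 4 sets were higher by at least as much.

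Ereg, which encodes epiregulin, a ligand of EGFR and ErbB4, read 9.62 on the stimulated array and 8.94 on the non-stimulated array. The difference was 0.68, or 1.60-fold higher, number 69 of 14068. A dimmer probeset of the gene differed by less, reading 7.02 with homogenate and 6.81 without, a difference of 0.22. Both were higher on the stimulated array, but the mean of both probesets differed by 0.45, short of 1.5-fold. The Ereg value therefore rests on 1 of its 2 probesets.

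The remaining EGF family ligands differed little. Hbegf, the heparin-binding ligand of EGFR and ErbB4, read 8.23 on the stimulated array and 8.33 on the non-stimulated array, 1.07-fold lower. Nrg1, neuregulin, a ligand of ErbB3 and ErbB4, read 9.26 on the stimulated array and 9.22 on the non-stimulated array, 1.03-fold higher. Differences of that size were common, with 1344 of the 3517 brightest genes higher by at least as much as Nrg1. Tgfa, the EGFR ligand transforming growth factor alpha, read 5.36 on the stimulated array and 5.37 on the non-stimulated array. Both values were under background, so no difference could be measured for Tgfa.

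**Figure D2:**
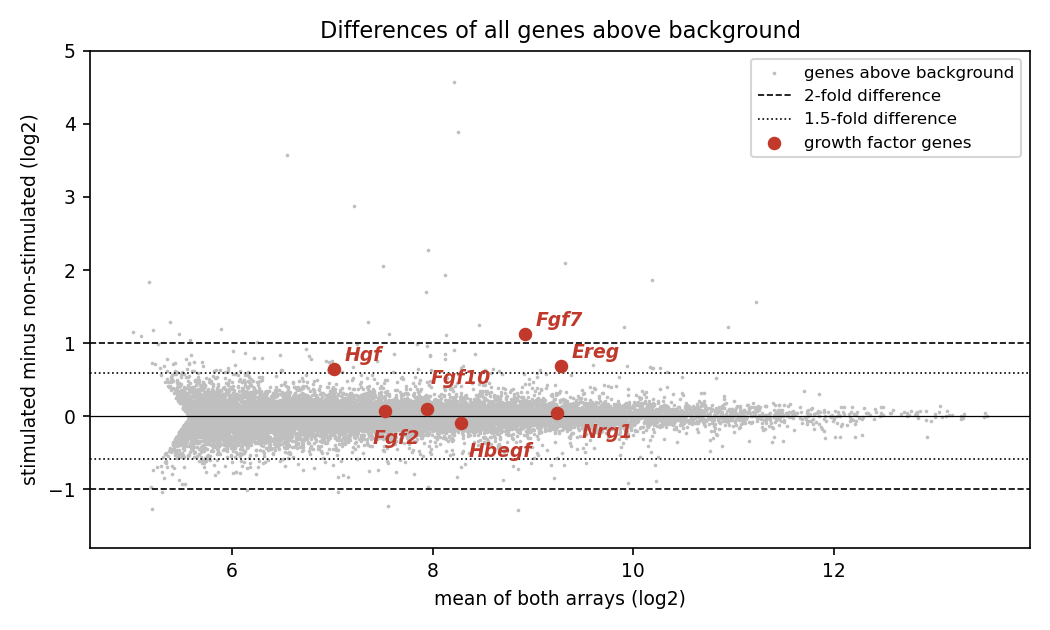
Difference of each gene above background (stimulated minus non-stimulated, log2, vertical axis) against its mean over both arrays (log2, horizontal axis); grey points are the 14068 genes, red points the 7 growth factor genes among them, and dashed and dotted lines mark 2-fold and 1.5-fold. Fgf7 lies past the upper dashed line, Ereg and Hgf past the upper dotted line, and the other 4 near 0.

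The spread of all genes depends on their level. The central 95% of differences lay between -0.39 and 0.36 in the second dimmest set, which holds Hgf, and between -0.25 and 0.29 in the brightest set, which holds Fgf7, Ereg and Nrg1. In the third set, with Fgf2, Fgf10 and Hbegf, it lay between -0.29 and 0.32. On the probesets that stood for the genes, Fgf7, Ereg and Hgf were each outside the range of their set, and the other 4 were inside it. The second probeset of Fgf10, at 0.35, was above the range of the third set. The dimmer probeset of Ereg, at 0.22, was inside the range of the second dimmest set. These ranges describe how far genes lay apart on these 2 arrays and are no error of a single gene.

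With 2 arrays, the difference is the one pattern by which genes can be likened to these ligands. Directly above Fgf7 in the order of differences stood Bmp2, a morphogen of the villus stroma, and Gm19792, and directly below it stood Xdh, the gene of xanthine dehydrogenase, and Lilrb4a. Bmp2 differed by 1.13 and Xdh by 1.12. Around Ereg stood Smim5, Atp6v1f, Nfkbiz, a nuclear regulator of NF-kB, and Tmem176b, the last at a difference of 0.68. Around Hgf stood Sod2, the mitochondrial superoxide dismutase, at 0.66, Serpina3n, a protease inhibitor of the acute phase, at 0.65, and then Thrsp and Fbxl5. Gm19792, Lilrb4a, Smim5, Atp6v1f and Thrsp were under background on the non-stimulated array.

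Ereg lies among its relatives on the chromosome. In the RefSeq gene table Epgn, Ereg, Areg and Btc follow each other with no other protein-coding gene between them. Btc, the EGFR ligand betacellulin, read 6.34 with homogenate and 6.13 without, a difference of 0.21. Epgn, epigen, was under background on both arrays, at 5.09 with homogenate and 5.16 without. The chemokine gene Cxcl1 stands 4 places before Ereg and differed by 2.87, while Mthfd2l between them differed by 0.17 and Parm1 on the far side by -0.26. Around Fgf7, viewed the same way after its value was seen, the 4 neighbours above background were all higher with homogenate, where 50.2% of all genes were. Dtwd1 differed by 0.47, Secisbp2l by 0.38, Galk2 by 0.28 and Cops2 by 0.14. Neighbours of Hgf above background went both ways, with Sema3c at 0.46, Cacna2d1 at 0.13, Speer4c at -0.27 and Speer4f2 at -0.11. Whether neighbours share a difference was not tested.

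**Figure D3:**
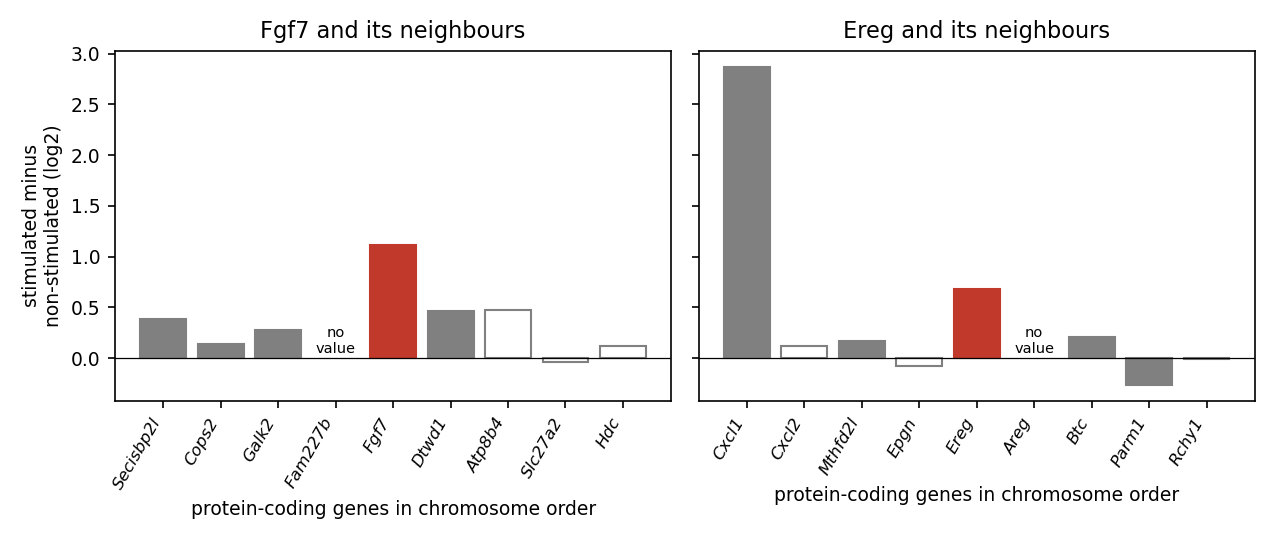
Difference (stimulated minus non-stimulated, log2, vertical axis) of Fgf7 (left) and Ereg (right), in red, and of the 4 protein-coding genes on each side in chromosome order (grey); open bars are genes under background on both arrays. Fgf7 at 1.12 stands above its 4 neighbours above background, at 0.14 to 0.47, and Ereg at 0.68 stands beside Btc at 0.21 and 4 places from Cxcl1 at 2.87.

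Genes at least 1.5-fold higher or lower were 0.796% and 0.64% of all genes above background, so a list of under 20 genes with none, as was each pathway list here, is near the background and no result about that list. Of 19 further FGF genes 11 were above background, 3 higher and 8 lower (median -0.10). The farthest were Fgf5, an inhibitor of hair growth, at -0.43, Fgf4, a factor of the early embryo, at 0.39, the intracellular Fgf13 at -0.36 and Fgf17 at -0.25. Of 6 further EGF family genes 3 were above background: Nrg2 at 0.28, Btc, and Nrg4 at -0.11. Egf itself was under background on both arrays. Among all 14068 genes the median was 0.00.

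The receptors of these ligands follow. Fgfr1, the main FGF receptor of fibroblasts, read 9.68 with homogenate and 9.66 without. Fgfr2, the receptor gene for FGF7 and FGF10, read 6.41 with homogenate and 5.96 without, 1.37-fold higher. Its non-stimulated value was near the background level of that array, 5.58. The Fgfr2 difference of 0.45 lay inside the central 95% of differences in the dimmest set, between -0.51 and 0.48. These probesets do not tell the epithelial splice form of Fgfr2 from the mesenchymal one. Fgfr4 differed by -0.03 and the short receptor Fgfrl1 by -0.12, and Fgfr3, Kl and Klb were under background on both arrays. Met, the HGF receptor, read 7.88 on the stimulated array and 7.41 on the non-stimulated array. It was 1.38-fold higher, beside its ligand Hgf at 1.56-fold, and a link between them was not tested. The Met difference of 0.46 lay above the central 95% of differences in the third set, which ended at 0.32. Among the other pathway genes named in this account, Fgf5, Adam17, Adam19, Gpc4, Sulf1, Hpse, Spry1 and Il17rd also lay outside the ranges of their sets.

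The ErbB receptors were slightly lower in all 3 cases above background. Egfr read 9.90 with homogenate and 10.00 without, a difference of -0.10. Erbb2 differed by -0.03, and Erbb4 was under background on both arrays. Erbb3, a neuregulin receptor known from glia and epithelium, read 9.46 with homogenate and 9.50 without. Enteric neuron and glia markers were present beside it, with 6 of 7 above background on both arrays and Elavl4 under it on both. The linear values of all 7 measured summed to 1343 on the stimulated array and 1416 on the non-stimulated array. Uchl1 and Tubb3 were the highest, and the glial factor Sox10, named after its value was seen, read 8.05 with homogenate and 8.22 without. Of epithelial markers, Epcam was under background on both arrays, and 5 of 13 were above it on the stimulated and 6 on the non-stimulated array, led by Cldn3 and Krt8. The part of such cells in the values of Nrg1, Erbb3 and Met was not tested.

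Other proteins free or activate the ligands. Of 9 genes for ligand sheddases and their partners above background, 3 were higher and 6 lower (median -0.03). Adam17, the metalloprotease that frees most EGFR ligands, read 8.66 with homogenate and 8.31 without, 1.27-fold higher. Rhbdf2, whose product iRhom2 brings ADAM17 to the cell surface, read 6.95 with homogenate and 6.60 without, 1.28-fold higher. Adam17 and Rhbdf2 thus differed by the same 0.35. Adam19, a neuregulin sheddase, differed by -0.26 and Adam12 by -0.08. Around HGF, 8 of 10 genes above background were higher, with a median of 0.06. After Met came Spint1, an inhibitor of the proteases that activate HGF, at 0.32, the HGF activator gene Hgfac at 0.20 and the protease gene Hpn at 0.14. Spint1, Hgfac and Hpn were near background, at 5.58, 5.83 and 5.71 on the non-stimulated array. The brighter protease genes Plau and Plat differed by 0.02 and 0.06.

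Carriers of heparan sulfate, the sugar chain that holds FGFs and HGF near the cell, went both ways. Higher values were seen for 8 of 17 genes above background and lower values for 9, and the median was -0.04. Gpc4, a glypican on the cell surface, read 9.05 with homogenate and 9.54 without, 1.41-fold lower. Sulf1, which strips sulfate from the chains, was higher by 0.40, and Hpse, which cuts them, by 0.38. Hs6st1, which adds sulfate of the kind that SULF1 removes, differed by -0.29.

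Further genes are switched on by FGF and EGF receptors or dampen them. The median of 17 genes above background was 0.03, with 10 higher and 7 lower. The 4 farthest from 0 were lower. Il17rd, an inhibitor of FGF signalling, read 6.59 with homogenate and 7.04 without, 1.36-fold lower. Spry1 and Spry2, feedback inhibitors, differed by -0.38 and -0.26, and Etv4, a transcription factor induced by FGF signals, by -0.37. Other genes of the same list were higher, led by Lrig1 at 0.24 and Errfi1 at 0.23. Etv1, Spry3 and Spred2 were each higher by 0.19 and Spred1 by 0.17, and the feedback gene Dusp6 differed by 0.01. Adaptors and kinases below the receptors had a median of 0.02 over 10 genes, the farthest being Gab1 at -0.20, Frs3 at -0.19, Map2k1 at 0.11 and Ptpn11 at -0.11.

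**Figure D4:**
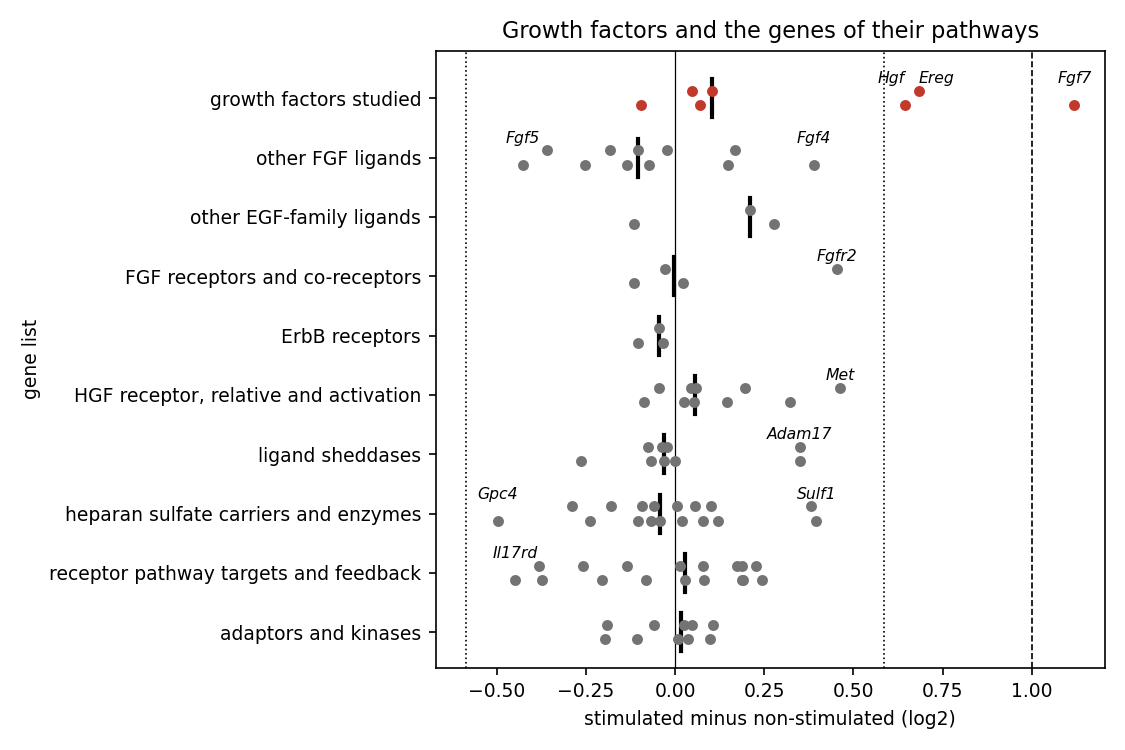
Differences (stimulated minus non-stimulated, log2, horizontal axis) of the genes above background in each list (one row a list); points are genes, the thick bar is the list's median, dotted lines mark 1.5-fold and the dashed line 2-fold. Fgf7, Ereg and Hgf lie past the upper dotted line, and every other gene shown, including Met at 0.46 and Gpc4 at -0.50, lies between the dotted lines.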

How the data were processed

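RNA of 2 pools was measured on Affymetrix whole-transcript arrays. The deposited values are log2 numbers per probeset, made by the authors with Affymetrix Expression Console and RMA, per the submitters' processing notes (no version or genome build is given there). RMA sets both arrays to 1 distribution (sorted values differed by at most 0.0757), so any overall shift between them is gone and differences are relative. The platform annotation gives 1 gene for 23521 of 41345 probesets, more than 1 for 1814 and no gene for 16010. Of the 23521, 23328 matched the RefSeq gene table (GRCm38.p6) by gene ID. The probeset with the highest mean stood for a gene (1082 genes had several). The background level used 1407 receptor probesets. No test exists with 1 array per condition, and genes were counted past 2-fold and 1.5-fold. The genes, gene lists and motifs were chosen with earlier results of these data known. The text names all 9 ligands, the up to 4 farthest genes of each pathway list, the FGF and ErbB receptors and Met, the 2 genes next to each ligand past 1.5-fold on either side in the order of differences, and the 2 highest markers of each list it describes. Genes named outside this rule were chosen after their values were seen. Alternatives changed the background, the probeset rule, the centring and the fold. Python 3.11.15, pandas 2.3.3 and statsmodels 0.14.6 were used, and scripts were tested on simulated data.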

Additional observations from a re-analysis of the deposited data

How the results depend on the processing

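The differences of the growth factors above background, the medians and 1.5-fold counts of the pathway lists and the counts over all genes were recomputed under 7 other settings, and the 2-fold count under 1 more. Values of single pathway genes, markers, ranks and ranges were not. Fgf7 was at least 2-fold higher in all 7, with differences between 1.10 and 1.12, and Hgf lay between 0.64 and 0.65. Fgf7 and Hgf have 1 probeset each and lay clear of background. The background and probeset settings therefore could not change their differences, and only the centrings could. At a threshold of 3-fold, 0 of the 7 genes passed. Ereg came to 0.45 with the mean of its probesets, which ends its 1.5-fold call, since the second probeset differed by less. With the probeset of largest difference, the median of the growth factors moved to 0.35, the value of Fgf10 there, and with the mean of probesets to 0.23. For the further FGF genes the median came to -0.25 with the 99th percentile as background, against -0.10. The median of the further EGF family genes moved from 0.21 to -0.094 without a background filter, since 3 genes under background then enter. It has no value with the 99th percentile as background, which none of these genes passes. Genes at least 2-fold higher and lower numbered 43 and 29 without that filter, against 27 and 6, and genes at least 1.5-fold higher and lower 272 and 317, against 112 and 90. With the 99th percentile as background, 3 were at least 2-fold lower, and 68 and 38 at least 1.5-fold higher and lower. No difference of at least 1.5-fold changed sign, while the median of the further EGF family genes did. No paired analysis was possible because each condition has 1 array, and no replicate could be left out. Genes near background, such as Tgfa, are limited by signal.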
